A study of Mus musculus with 4 samples.

Results

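This comparison sets germline stem (GS) cells that lack Trp53 against control GS cells of the mouse, over all genes that the array's annotation names by 1 symbol. GS cells are spermatogonial stem cells of the testis kept dividing in culture. The knockout culture is labelled as Trp53 KO GS cells and its title adds the strain ICR. The control culture is labelled as GS cells, with no strain. Age, the number of animals and the number of cell lines behind either culture are not given in the sources used here, and strain and genotype cannot be told apart. Both were grown in the same GS medium, based on StemPro-34. The other 2 arrays of the series, from multipotent germline stem (mGS) cells and from the embryonic stem (ES) line R1, both in ES medium, are given beside the GS values as a reference. The series looks for molecules involved when GS cells turn into mGS cells. Of its 4 Affymetrix arrays, 2 are compared here, and 18193 genes have a value. Because each culture has 1 array, there is no replicate check, no test and no p-value, and every difference is described by its size.

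Trp53 encodes p53, a transcription factor that damage and stress stabilise and that switches on genes of cell cycle arrest, DNA repair and cell death. Its target Cdkn1a encodes an inhibitor of the cyclin-dependent kinases (CDKs), which drive a cell from G1 through DNA replication into mitosis. Spermatogonial stem cells self-renew in response to GDNF, which acts through the receptor pair Gfra1 and Ret, and to FGF2, which acts through ERK kinases. Retinoic acid pushes their progeny towards differentiation and meiosis, with Stra8 and Kit among the genes that mark the step. Mice without p53 are known as a source of GS cultures from which multipotent cells emerge readily.

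Signals are normalised intensities. A signal under the array median of 82.7 was raised to that floor, a fold computed against the floor is a lower bound and is written with "at least", and genes that lay under it on both arrays were not compared. In this way 11623 genes were compared, 10141 of them above the floor on both arrays. On the knockout array 1135 genes (9.77%) exceeded the GS value by 2-fold or more and 805 (6.93%) lay below it by as much. Among the 4357 genes with a mean signal of at least 1000 these shares were 6.06% and 6.04%. The median difference of all genes was 0.07 on the log2 scale. With the arrays centred on their medians instead, the median of all genes shifted by -0.12, and 838 genes were higher and 1072 lower, so that 43.9% of the genes 2-fold apart were higher, against 58.5%. The log2 differences of separate probe sets for one gene had a standard deviation of 0.49 over 4710 genes. This value describes how far probe sets disagree on the same 2 arrays. Spread between arrays or between cultures cannot be measured here. The knockout was not checked at the deleted gene, since Trp53 was not analysed here.

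The arrays also differed in added control RNAs. The poly-A controls dap, lys, phe and thr read between 7.08-fold and 23.1-fold higher on the knockout array than on the GS array. They were high on the ES array too, where dap read 2545, against 3055 on the knockout, 271 on the GS and 255 on the mGS array. Of the hybridisation controls, bioB, bioD and cre were between 1.22-fold and 1.60-fold lower on the knockout array than on the GS array and bioC 5.09-fold lower. The 3′ to 5′ ratio of Actb, a sign of RNA integrity, was 1.51 for GS cells against 1.42 for the knockout, and that of Gapdh was 0.73 and 0.66. That of Tfrc was lower on the knockout array, 1.80 against 3.75, and that of Pcx higher, 3.35 against 1.74. None of 10 housekeeping genes was 2-fold apart at the strongest probe set, but 2 were 2-fold higher with the probe sets of each gene averaged. Of 18 stress response genes 5 exceeded the GS value by 2-fold or more, where 9.77% of all genes did. Among them was Asns, an amino acid synthesis gene of chromosome 6, at 3.79-fold. The part these differences play in the results was not tested.

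Both cultures carried the markers of germline stem cells. The GS and knockout arrays read 25675 and 21031 for the germ cell RNA-binding gene Dazl, 9369 and 13693 for the germ cell helicase gene Ddx4 and 6287 and 7418 for the surface glycoprotein gene Tex101. Zbtb16, a transcription factor of undifferentiated spermatogonia, read 8212 and 10557. The GDNF receptor genes Gfra1 and Ret, also markers, were lower on the knockout array, 1564 and 655 and 2076 and 734. Both arrays had Nanog and Tdgf1, genes of embryonic stem cells, under the floor. Sox2, also such a gene, read 1070.1 and 185. Esrrb, a further one, read 66.1, under the floor, and 114, and 88.5 and 116 at another probe set. Of other cell types, 5 of 6 measured Leydig cell genes, 9 of 13 Sertoli cell genes 8 of 12 leukocyte and endothelial genes and 6 of 26 fibroblast and matrix genes were under the floor on both. Fibroblast and matrix genes stood apart: 9 of 20 compared exceeded the GS value by 2-fold or more, where 9.77% of all genes did, and none lay as far below. Their median was 0.94 (0.14, with 4 of 15 higher, when all probe sets of a gene were averaged), and their summed signal was 6501 for GS cells against 10794 for the knockout. Median signals of the list were 123 for GS cells and 280 for the knockout, beside 264 for mGS and 2813 for ES cells. Of the 25 list genes that any array measured above the floor, none was highest on the knockout array, where 32.6% of all genes were. Ccn2, a matricellular protein gene, read 88.6 and 699.6, Lox, for a collagen cross-linking enzyme, 114 and 538 and S100a4 85.5 and 490.0. Acta2, Col1a2 and Bgn were 2.97-fold, 2.33-fold and 2.32-fold higher. In the other direction, 6 of the 20 lay below the GS value, each within 2-fold. Among them Sparc read 567 for GS cells against 317 for the knockout, and Col5a1 and Col6a2 were 1.36-fold and 1.32-fold lower. A second probe set of Col6a2 was at least 2.28-fold lower. Col1a1 read 283 and 543, and Col3a1, Lum and Dcn were under the floor on both arrays. In bulk samples fewer cells of a type and less RNA per cell cannot be told apart, and the part of fibroblasts in the results below was not tested.

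Cell cycle genes were lower on the knockout array across almost the whole group, and most strongly those of mitosis. Of 145 cell cycle genes compared, 128 were below the GS value, 65 of them by 2-fold or more, where 6.93% of all genes were, and 3 exceeded it by as much. The median difference was -0.88, against 0.07 for all genes. On 99 of the 145 the knockout array was the lowest of the 4 arrays, as it was for 21.0% of the 12897 genes that any array measured above the floor. Of the 65 lower genes, 42 had further probe sets that could be compared; 63 of those 68 probe sets were lower too, 45 of them by at least 2-fold, and none was 2-fold higher.

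The size of the difference varied with the step of the cycle in which the genes act. Among 24 genes of mitotic motors, condensin and cytokinesis the median was -1.79. Of these, 19 were lower by 2-fold or more, where 6.93% of all genes were and 9.77% were higher by as much. The median was -1.21 with 16 of 23 lower for spindle checkpoint and kinetochore genes, and -1.19 with 8 of 14 lower for the kinases and cyclins that start mitosis. With the probe sets of each gene averaged, the medians of these mitotic lists were -1.33, -1.33 and -1.22. In that setting 17 of 24, 15 of 23 and 9 of 14 genes were lower, and 1 gene of the mitotic motor list was higher. For 44 genes that license and run replication forks the median was -0.67 (-0.65 with probe sets averaged), with 12 lower and none higher. For 9 G1 cyclins and their kinases it was -0.88, with 2 lower, or 5 with arrays centred on their medians and 4 with the probe sets of each gene averaged. Rb and E2F genes, which hold or drive entry into S phase, had a median of -0.21 over 17 genes, with 4 lower and 1 higher, and of -0.58 over 15 genes, with 2 lower, when probe sets were averaged.

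**Figure D1:**
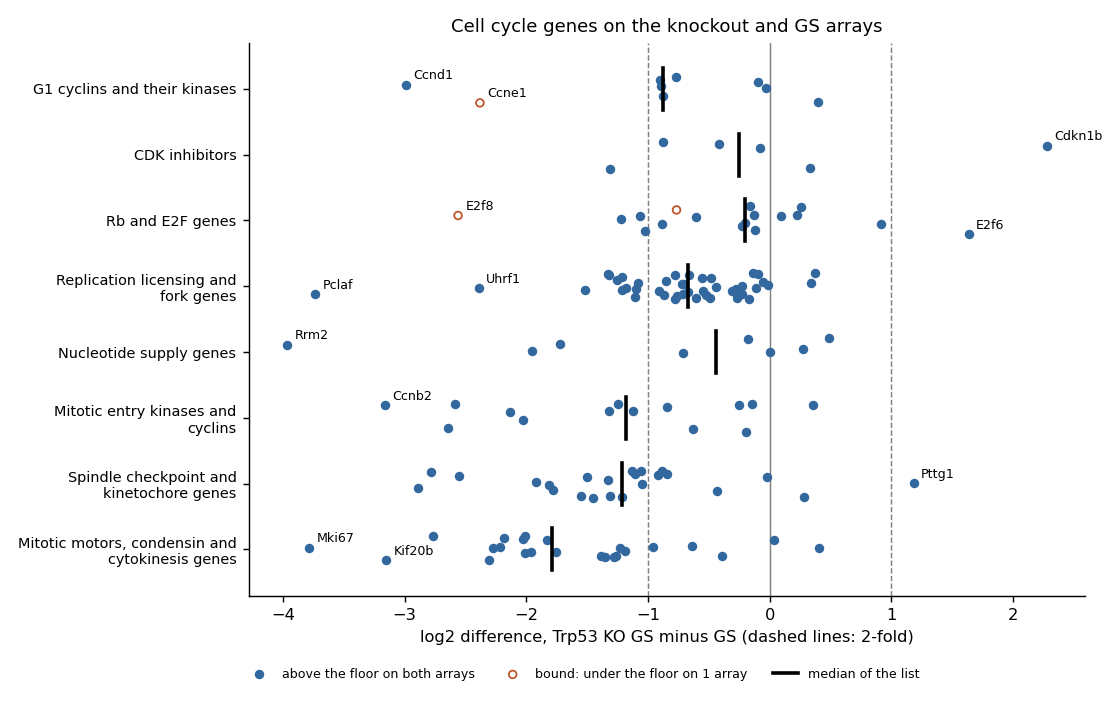
Log2 differences between the knockout and GS arrays (x axis) for the genes of 8 cell cycle lists (rows), 1 point per gene, with open points for bounds and black bars for list medians. The 3 mitotic lists at the bottom have medians of -1.19, -1.21 and -1.79, and Cdkn1b, E2f6 and Pttg1 are the genes beyond 2-fold on the higher side.

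Mki67, whose product coats mitotic chromosomes and marks cycling cells, read 6715 on the GS array against 487 on the knockout array, 13.8-fold lower, with 3435 on the mGS and 3925 on the ES array. Ccnb2, a mitotic cyclin gene, read 6365 and 709.8 on the GS and knockout arrays (8.97-fold). Kif20b, a kinesin gene of cytokinesis, read 3754 and 422 (8.89-fold). For these genes the other 3 arrays lay well above the knockout. Ube2c, the ubiquitin-conjugating enzyme gene of the anaphase-promoting complex, read 6948 and 935 (7.43-fold). Cdk1, the kinase of mitotic entry, read 4677 and 779, and Plk1, a second mitotic kinase, 2307 and 368, Plk1 being 6.27-fold lower. Top2a, which untangles chromosomes, read 14027 and 2841, and a further probe set for it read 1324 and 188. Not every mitotic gene was low: Mad2l1, a spindle checkpoint gene, read 9100.0 and 8935, and Nek2 3206 and 2894. Pttg1, the securin gene, was 2.27-fold higher at its strongest probe set, but its other 2 probe sets were lower, by at least 1.35-fold and by 1.39-fold.

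Genes of S phase were less even. Rrm2, the regulated subunit of ribonucleotide reductase, read 4639.5 on the GS array against 297 on the knockout array (15.6-fold), while Rrm1, the partner subunit, read 7514 and 4594 (1.64-fold). Rrm2b, the p53-induced alternative subunit, read 236 on both arrays. Tk1 and Tyms, for enzymes of thymidylate supply, were 3.88-fold and 3.30-fold lower. Pclaf, a partner of the sliding clamp PCNA, read 6971 and 523 and Uhrf1, which keeps DNA methylation at the fork, 9815 and 1873. By contrast the helicase subunits Mcm2 to Mcm7 ranged from 1.17-fold lower for Mcm2 to 2.32-fold lower for Mcm5 at their strongest probe sets. Other probe sets of Mcm3 were between 1.06-fold and 3.66-fold lower, and another of Mcm5 2.81-fold. Rpa1, which covers single-stranded DNA, read 13073 and 12107. Of the 44 replication genes 42 lay below the GS value, 12 of them by 2-fold or more, where 6.93% of all genes did. The other 32 stayed within 2-fold. With arrays centred on their medians 17 of the 44 were 2-fold lower, and 15 with the probe sets of each gene averaged.

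Of the regulators that decide on entry into the cycle, D-type cyclins differed among themselves. Ccnd1 read 1894 on the GS array against 238 on the knockout (7.95-fold lower), with 2352 on mGS and 6901 on ES, and its other 2 probe sets were 13.3-fold and 7.65-fold lower. Ccnd2, a D cyclin known to support the self-renewal of GS cells, read 11311 and 6164 (1.84-fold lower) at its strongest probe set, against 488 on mGS and 3825 on ES, and its 6 other probe sets were between 1.27-fold and 4.14-fold lower, 3 of them by over 2-fold. Ccnd3 read 1155 and 1516. Ccne1, the partner of CDK2 at the start of S phase, read 431 and 76.0, at least 5.21-fold lower, while the kinase genes Cdk4 and Cdk6 differed by -0.10 and -0.03 on the log2 scale, although a weaker probe set of Cdk6 was 1.90-fold higher. E2f8, a repressor that peaks in S phase, was at least 5.91-fold lower, E2f7 2.04-fold lower and Foxm1, the activator of mitotic genes, 2.09-fold lower. E2f1, the activator of S phase genes, read 1068 and 983 at its strongest probe set and 863 and 484 at another. E2f6, a repressive member of the family, read 1615 and 5016 and was 3.11-fold higher, although a weak second probe set read 84.3 and 106.

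Among 6 CDK inhibitor genes compared, 1 was higher and 1 lower by 2-fold or more, against 9.77% and 6.93% of all genes. Cdkn1b, encoding p27, read 165 on the GS array against 797 on the knockout array (4.84-fold higher), above its 263 on mGS and 391 on ES. Its second probe set was under the floor on both arrays. Cdkn1c, encoding p57, read 1872 and 753 (2.48-fold lower). Cdkn1a, encoding p21 and the classical target of p53, read 1095 and 595, a difference of -0.88 on the log2 scale that stays within 2-fold. The Cdkn1b difference rests on 1 probe set, and any link between these inhibitor genes and the low cell cycle signals was not tested.

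Promoters were searched for elements of cell cycle control. The cell cycle homology region (CHR) is an element through which the DREAM complex holds mitotic genes silent outside the cycle and through which B-Myb and FoxM1 complexes act on them, while E2F elements are typical of genes of S phase. The letters TTTGAA or TTCGAA (CHR) and TTCCCGC or TTGGCGC (E2F-like) were searched on both strands in the window from 250 bases before to 50 after the most upstream RefSeq start of each gene (GRCm38.p6). Of the 65 cell cycle genes that were lower by 2-fold or more, 52 had a promoter in the table, and 34 of these (65.4%) held a CHR match. Of 65 such promoters among the other 80 cell cycle genes, 19 (29.2%) did, as did 13.2% of the promoters of all genes compared and 19.5% of all 27025 promoters. E2F-like letters ran the other way, in 12 (23.1%) of the lower and 25 (38.5%) of the other cell cycle genes, against 12.9% of all genes compared and 6.96% of all promoters. By list, CHR matches were in 19 of 21 promoters of mitotic motor, condensin and cytokinesis genes and in 8 of 36 of replication genes, and E2F-like matches in 6 and 21 of them. The lower and the other cell cycle genes hold mitotic genes in unequal shares, so these shares describe the groups and were not tested. A match is only a run of letters.

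The 5 cell cycle genes furthest below the GS value whose CHR match lies before the start are shown with up to 30 bases on each side, 5′ to 3′ on the strand of the gene, with the match nearest the start in capitals (TTCAAA is TTTGAA read from the other strand). Mki67 has a further TTTGAA upstream, left in lower case.
Mki67, chr7:135716442-135716507, minus strand: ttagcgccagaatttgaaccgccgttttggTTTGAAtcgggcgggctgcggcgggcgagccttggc
Ccnb2, chr9:70421686-70421751, minus strand: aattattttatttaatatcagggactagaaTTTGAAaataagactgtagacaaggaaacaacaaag
Ube2c, chr2:164769870-164769928, plus strand: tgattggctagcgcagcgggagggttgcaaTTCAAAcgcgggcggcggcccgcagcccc
Cdk1, chr10:69352913-69352957, minus strand: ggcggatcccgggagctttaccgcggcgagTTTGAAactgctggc
E2f8, chr7:48881597-48881646, minus strand: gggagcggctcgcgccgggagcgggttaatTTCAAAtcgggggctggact
The matches of Cdk1, E2f8 and Ube2c end 9, 14 and 23 bases before the start, those of Mki67 and Ccnb2 92 and 161. Uhrf1 and Cdc6 are the replication genes among the 5 furthest below that have an E2F-like match before the start, which is in capitals here (GCGGGAA is TTCCCGC from the other strand).
Uhrf1, chr17:56303259-56303325, plus strand: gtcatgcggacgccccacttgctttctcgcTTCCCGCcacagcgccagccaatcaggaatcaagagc
Cdc6, chr11:98907983-98908049, plus strand: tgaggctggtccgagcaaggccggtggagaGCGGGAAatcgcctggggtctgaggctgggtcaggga

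**Figure D2:**
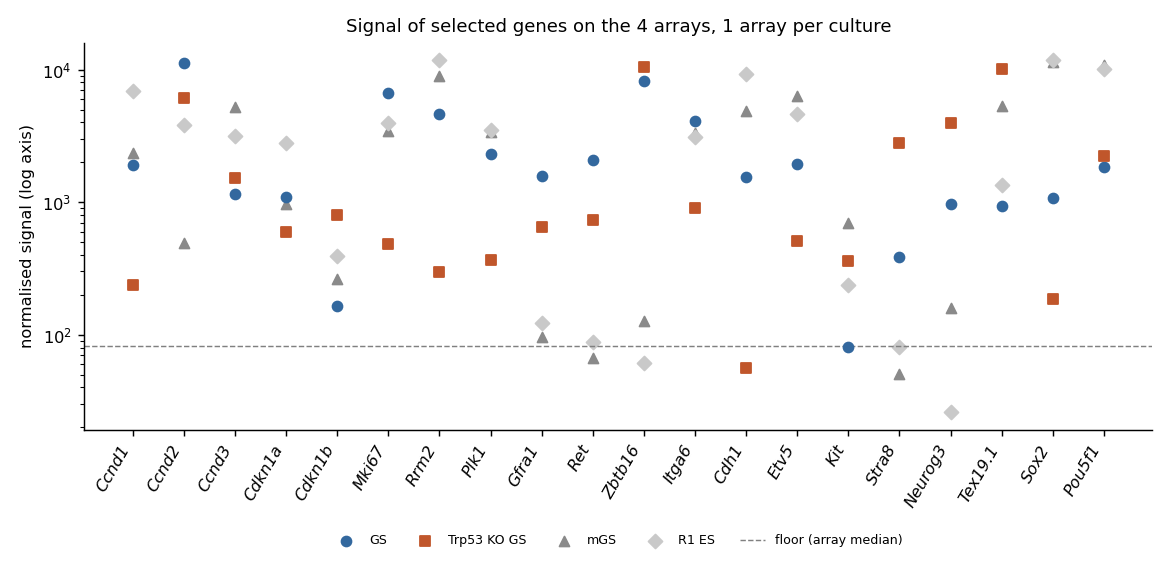
Normalised signal (y axis, log scale) of 20 genes on the GS, Trp53 KO GS, mGS and ES arrays, 1 point per array, with the floor of 82.7 as a dashed line. The knockout square is the lowest point for Ccnd1, Mki67, Rrm2, Plk1, Itga6, Cdh1 and Sox2 and the highest for Cdkn1b, Stra8, Neurog3 and Tex19.1.

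Growth factor receptors went both ways: the GDNF receptor genes Ret and Gfra1 were lower on the knockout array, and Kit and Gfra3 higher. Of 24 receptor tyrosine kinase and co-receptor genes compared, 4 were lower by 2-fold or more (6.93% of all genes were) and 3 higher (9.77%). Ret read 2076 on the GS array against 734 on the knockout array (2.83-fold lower, 3.09-fold at its other probe set), and 66.9 on the mGS and 88.7 on the ES array. Gfra1 read 1564 and 655 (2.39-fold lower), and its other probe sets were 1.51-fold and 1.74-fold lower. Both GDNF receptor genes thus kept a signal above that of the cultures in ES medium. Fgfr1 was 2.21-fold lower and Epha2, an ephrin receptor that p53 can induce, at least 8.49-fold lower. Gfra3, a co-receptor for artemin, was at least 5.72-fold higher and Kit, the receptor of differentiating spermatogonia, at least 4.36-fold higher, reading 80.4 and 361. Sdc4, a heparan sulfate proteoglycan, read 9708 and 28064 (2.89-fold higher) at its strongest probe set and 214 and 199.9 at the other.

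Many ligand genes had no signal above the floor: of 24 measured, 12 were under the floor on both arrays, among them Gdnf, Fgf2, Lif and Kitl. Of the 12 compared, 3 were lower (6 with arrays centred on their medians) and 1 higher, against 6.93% and 9.77% of all genes. Igf2, a growth factor gene under parental imprinting, read 3511 on the GS array against 436 on the knockout array (8.04-fold lower), with 252 on mGS and 1388 on ES. Pdgfb read 1798 and 598 (3.01-fold lower) and Fgf9 was at least 3.75-fold lower.

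The kinase relay between receptors and nucleus differed little. None of 19 Src family, Ras and MAP kinase genes compared was 2-fold apart; Fyn, an Src family kinase gene, read 3164 and 1897, Map2k1, which encodes the kinase of ERK, 3275 and 3029 and Nras 1594 and 1795. Of 27 PI3K, AKT and mTOR genes, 3 exceeded the GS value by 2-fold or more (9.77% of all genes did) and none lay as far below (6.93%). Centring the arrays on their medians left none higher. With probe sets averaged 1 of 26 was higher, and the median turned from 0.29 to -0.13. The largest of these were Ddit4, an inhibitor of mTOR that p53 can induce, 2.18-fold, and Eif4ebp1, a translation repressor that mTOR inactivates, 2.02-fold, but other probe sets of Eif4ebp1 were 1.08-fold higher and 1.44-fold lower.

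Transcripts that follow ERK activity were lower in part. Of 26 feedback and immediate early genes, 11 lay 2-fold or more below the GS value (6.93% of all genes did) and 3 above it (9.77%), and the median was -0.73. The ETS factor gene Etv4 read 618 on the GS array against 12.3 on the knockout array (at least 7.48-fold lower), and Etv5 read 1955 and 507 (3.85-fold). The ERK phosphatase genes Dusp4, Dusp7 and Dusp6 were at least 8.24-fold, 4.02-fold and 2.31-fold lower, and the receptor tyrosine kinase inhibitors Spry4 and Spry1 at least 3.99-fold and 2.42-fold. Dusp9, a further ERK phosphatase gene outside the list, read 3020.2 and 229 (13.2-fold) and was among the 10 lowest of all genes above the floor on both arrays. Immediate early genes were mixed: Egr2 was 3.90-fold lower, Egr1 read 4717 and 4557 and Fos 973 and 1539.6, Dusp1, a stress-induced phosphatase gene, was 2.21-fold higher, and Jun, an AP-1 subunit gene, 4.36-fold higher.

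The BMP and cytokine pathways showed single strong members. In the BMP pathway Id3, a helix-loop-helix inhibitor that BMP signals induce, read 2334 on the GS array against 165 on the knockout array (14.2-fold lower), while Id1 read 709 and 521 and Id4 2750.4 and 2443. Smad6, a feedback inhibitor of BMP signals, was 3.98-fold lower and Bmp7 3.25-fold lower. The receptor genes Bmpr1a and Bmpr2 differed by -0.64 and 0.34 on the log2 scale. A further receptor gene, Bmpr1b, read 60.2 and 236, at least 2.85-fold higher, and its other probe sets were at least 2.03-fold and 2.55-fold higher. Smad3 was 2.18-fold higher at its strongest probe set, and 1.20-fold and 1.55-fold at others. Over 26 TGF-beta and BMP genes 5 were lower (6.93% of all genes were) and 2 higher (9.77%). In the cytokine pathway Socs3, the feedback inhibitor that STAT3 induces, read 6098 and 1405 (4.34-fold lower), Stat3 itself 9887 and 3741 (2.64-fold) and the kinase Jak1 8316 and 3720.3 (2.24-fold), whereas the receptor genes Lifr and Il6st read 849 and 1118 and 998 and 824. Of 17 genes of that pathway 4 were lower and 2 higher, against 6.93% and 9.77% of all genes, and with probe sets averaged 2 of 15 were lower and none higher.

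**Figure D3:**
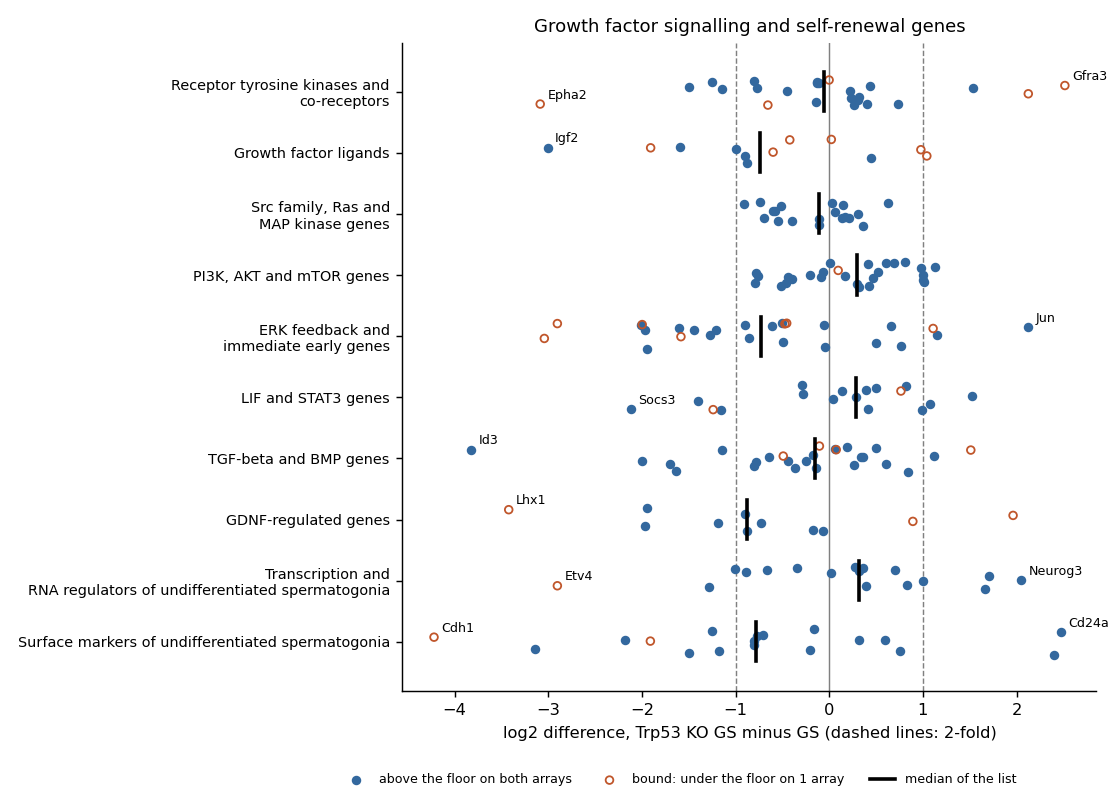
Log2 differences between the knockout and GS arrays (x axis) for growth factor signalling and self-renewal lists (rows), 1 point per gene, open points being bounds and black bars medians. The ERK feedback, GDNF-regulated and surface marker medians are -0.73, -0.88 and -0.78, while all points of the Src family, Ras and MAP kinase list lie inside the 2-fold lines.

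Self-renewal genes were described in 3 lists, with medians of -0.88 for GDNF-regulated genes, -0.78 for surface markers and 0.32 for regulators of undifferentiated spermatogonia (0.02 with probe sets averaged). The differences between the lists were not tested. Of 11 GDNF-regulated genes, 9 were below the GS value, 4 of them by 2-fold or more, where 6.93% of all genes were. Lhx1 read 886 on the GS array against 32 on the knockout array (at least 10.7-fold lower), Egr2 1295 and 332 and Bcl6b, a repressor needed for stem cell upkeep, 1009.9 and 442 (2.29-fold). Pou3f1 read 1759 and 1058 (and 2.20-fold lower at a weaker probe set), Egr3 387 and 208 and Mycn 2472 and 2357. Cxcr4, a chemokine receptor gene, went the other way and was at least 3.90-fold higher, and Tspan8 read 46.5 and 154.

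Of 18 surface marker genes, 7 lay 2-fold or more below the GS value and 2 above it, against 6.93% and 9.77% of all genes, and with probe sets averaged 4 of 16 were lower. Cdh1, the E-cadherin gene, read 1541 on the GS array against 55.8 on the knockout array (at least 18.6-fold lower), against 4894 on mGS and 9237 on ES, from 1 probe set. Itga6, for integrin alpha-6, a marker used to enrich stem cells, read 4109 and 907 (4.53-fold, and 2.07-fold at its other probe set). Its partner Itgb1 read 1641 and 2045. Epcam, an epithelial adhesion molecule, was 2.26-fold lower (1.21-fold at a weaker probe set), and Cd82, a tetraspanin gene, 8.80-fold lower. Cd9, a tetraspanin marker of the stem cells, read 6008 and 10109. Cd24a, an adhesion molecule, was 5.58-fold higher and Upp1, a uridine phosphorylase gene, 5.27-fold higher.

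Among 17 regulators of the undifferentiated state compared, 4 exceeded the GS value by 2-fold or more and 3 lay as far below, against 9.77% and 6.93% of all genes. Sall4 read 4107 and 5403, Foxo1 2858 and 3575, Dmrt1 15665 and 15836 and Lin28a 2643 and 4303 on the GS and knockout arrays, but another probe set of Lin28a was 1.72-fold lower. The Polycomb gene Bmi1 read 3067 and 6139, just past 2-fold. The other higher genes were Neurog3, 4.14-fold, Sox3, 3.16-fold, and Utf1, 3.27-fold, the first 2 of which are known from progenitor spermatogonia. Lower were Etv4, given above, Foxc2, 2.44-fold, and Zbtb7a, 2.02-fold.

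Differentiation genes went both ways. Of 17 compared, 6 exceeded the GS value by 2-fold or more and 3 lay as far below, against 9.77% and 6.93% of all genes. Stra8, which retinoic acid induces ahead of meiosis, read 389 on the GS array against 2794 on the knockout array (7.19-fold higher), with 50.6 on mGS and 81.4 on ES. Neurog3 read 963 and 3985, Sox3 1703 and 5385 and the X-linked homeobox gene Esx1 129.9 and 556. Rhox13, a homeobox gene translated in differentiating spermatogonia, read 5627 and 1232 (4.57-fold lower), Dmrtb1 381 and 54.8 and Sohlh2 4633 and 2135. Sohlh1, which acts with Sohlh2, read 1054 and 636. The knockout array thus carried Stra8, Kit and Neurog3 at higher signals while Sohlh1, Sohlh2, Dmrtb1 and Rhox13 were lower or within 2-fold.

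Of 19 retinoid genes measured, 13 could be compared. Of these, 2 exceeded the GS value by 2-fold or more and 1 lay as far below, against 9.77% and 6.93% of all genes. The retinaldehyde dehydrogenase gene Aldh1a2, which makes retinoic acid, read 357 and 904 (2.53-fold higher) and Crabp1, a binding protein gene, 1066 and 2252 (2.11-fold higher). Crabp2, the binding protein that delivers retinoic acid to its receptors, read 2696 and 961 (2.80-fold lower). The receptors Rara and Rarg read 312 and 270.3 and 863 and 1442, and the degrading enzymes Cyp26a1 and Cyp26b1 were under the floor on both arrays.

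Meiotic genes were transcribed in both cultures and differed singly. Of 15 genes of the chromosome axis 3 were lower and 1 higher, against 6.93% and 9.77% of all genes: Sycp3, of the lateral element, read 4873 and 12488 (2.56-fold higher), Sycp1, of the transverse filament, 7563 and 2732 (2.77-fold lower) and Sycp2 1286 and 2372. Meioc, which extends meiotic prophase, was 3.10-fold lower and the meiotic cohesin gene Smc1b 2.13-fold lower. Of 16 recombination genes 4 were lower and 1 higher, against 6.93% and 9.77% of all genes. The lower ones included the strand exchange gene Dmc1, 2.24-fold, and its helpers Mnd1 and Psmc3ip, 2.18-fold and 2.17-fold. Tex15, a gene of meiotic repair and transposon silencing, read 3135 and 9698 (3.09-fold higher). Among 15 spermatid genes 11 were under the floor on both arrays.

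The piRNA pathway was higher as a group. PIWI proteins and Tudor-domain proteins load small RNAs that silence transposons in male germ cells. All 17 piRNA pathway genes compared lay above the GS value, 7 by 2-fold or more, where 9.77% of all genes did. Their median was 0.62, and with arrays centred on their medians 5 were 2-fold higher and the median was 0.45. On 16 of the 17 the knockout array was the highest of the 4, but both cultures in ES medium had low signals here. List medians were 177 for mGS and 144 for ES cells, beside 1867 for GS cells. A gene above its GS value would thus mostly rank highest. The rank therefore adds little to the comparison with GS cells, and the 32.6% of all 12897 genes is no baseline for it. Tdrd9, a helicase gene, read 121 on the GS array against 1397 on the knockout array (11.6-fold). Tex19.1 read 934 and 10085 (10.8-fold). Of the PIWI genes, Piwil4, of the nuclear arm, read 238 and 1370.0 (5.76-fold), but a weaker probe set of it only 78.9 and 155, Piwil2, of the cytoplasmic arm, 4571 and 9887 (2.16-fold), and Piwil1, of meiotic cells, 159 and 378 (2.37-fold). Tdrd1 and Tdrd7 were 2.60-fold and 2.19-fold higher, while Mael and Tdrkh read 12629 and 13383 and 1867 and 1974. Higher signals thus ran through both arms of the pathway, and 10 members stayed within 2-fold.

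**Figure D4:**
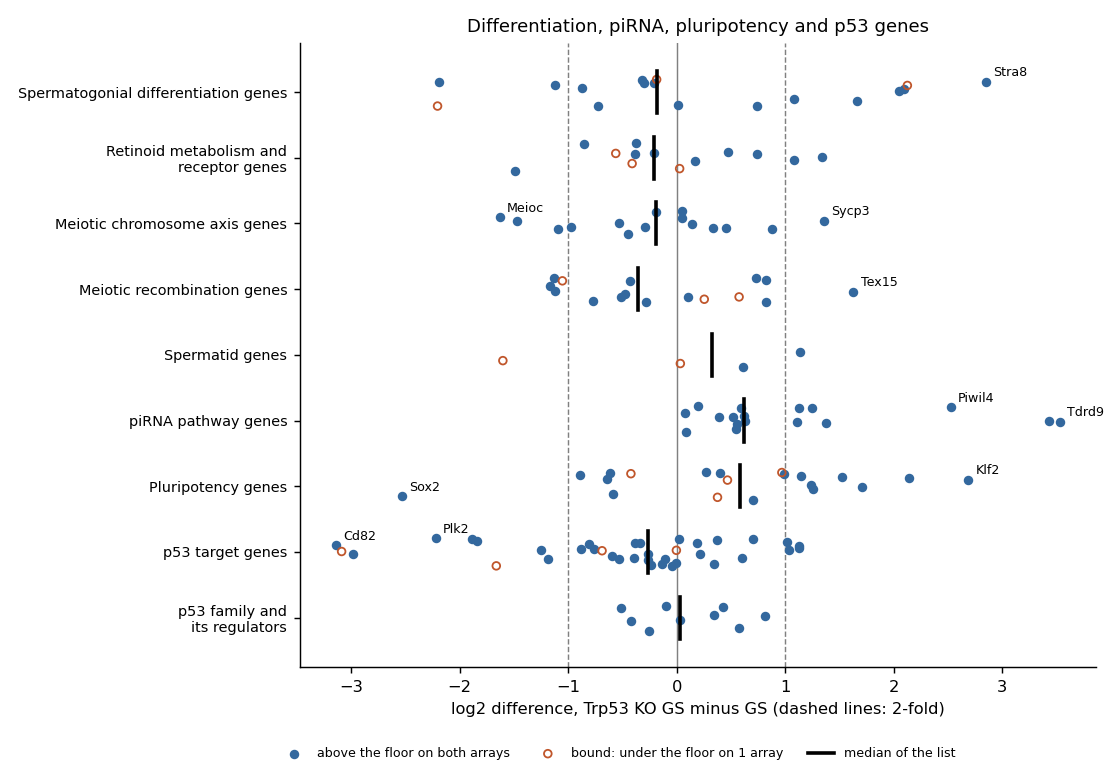
Log2 differences between the knockout and GS arrays (x axis) for differentiation, meiosis, piRNA, pluripotency and p53 lists (rows), 1 point per gene, open points being bounds and black bars medians. All 17 points of the piRNA list lie above 0, and the p53 target list has a median of -0.26 with Cd82 at -3.14.

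The core pluripotency genes stayed far below their level in the cultures in ES medium. Of 28 genes measured, 8 were under the floor on both arrays, and of the 20 compared 7 exceeded the GS value by 2-fold or more and 1 lay as far below, against 9.77% and 6.93% of all genes. The median was 0.59, or 0.27 over 15 genes with probe sets averaged, and without chromosomes 6 and 16, a setting chosen after seeing the data, 4 of 16 were higher. Pou5f1 read 1847 and 2229 on the GS and knockout arrays against 10829 on mGS and 10189 on ES. Sox2 read 1070.1 and 185 (5.79-fold lower), against 11518 and 11768. Klf2 read 109.5 and 706 (6.45-fold higher), against 6139 and 3002, and Dppa3 241 and 1062 (also higher), against 2431 and 2643. Over the list the median signal was 162 for GS cells against 284 for the knockout.

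Targets of p53 differed gene by gene. Of 37 compared, 9 lay 2-fold or more below the GS value (6.93% of all genes did) and 4 above it (9.77%), the median was -0.26, and 26 lay below the GS value. The knockout array was the lowest of the 4 on 23 of 41 targets, against 21.0% of genes. Ccng1, encoding cyclin G1, read 3149 on the GS array against 854 on the knockout array (3.69-fold lower), Plk2 958 and 206 (4.66-fold) and Eda2r, a death receptor gene, 261 and 9.50 (at least 3.16-fold). Btg2, an antiproliferative gene, was 7.92-fold lower at its strongest probe set, but read 669 and 731 at the other. Cd82 and Epha2 are given above, and Psrc1, Plk3 and the apoptosome gene Apaf1 were 3.58-fold, 2.38-fold and 2.28-fold lower. Mdm2, the ubiquitin ligase that limits p53, read 2698 and 3425, Sesn1 1273 and 1939 and Zmat3 219.8 and 224, none of them 2-fold apart at the strongest probe set. Higher were Ddit4, 2.18-fold, the DNA repair gene Xpc, 2.18-fold, Tnfrsf10b, 2.05-fold, and Gadd45b, 2.02-fold, and with arrays centred on their medians 1 target was 2-fold higher. Of the p53 family and its regulators none was 2-fold apart among 9 compared, and the paralogues Trp63 and Trp73 were under the floor on both arrays.

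Differences also followed the chromosome. Genes of chromosome 6 were higher on the knockout array, their median being 0.51 over 575 genes, 434 of them (75.5%) above the GS value, where 53.8% of all other genes were. On chromosome 6, 128 genes (22.3%) exceeded the GS value by 2-fold or more and 16 (2.78%) lay as far below, against 9.11% and 7.14% of the other genes. In 5 equal groups of neighbouring genes along chromosome 6 the median ranged from 0.37 to 0.64. Chromosome 16 followed with a median of 0.27 over 375 genes, and all other autosomes and X lay between -0.02 and 0.11. The chromosome 6 median was 0.50 against the mGS array and 0.43 against the ES array, while it was -0.06 for mGS against GS, -0.03 for ES against GS and 0.03 for ES against mGS. The excess thus lay with the knockout array. These medians share arrays and are given as a description, and no source used here gives the chromosome numbers of these cells.

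**Figure D5:**
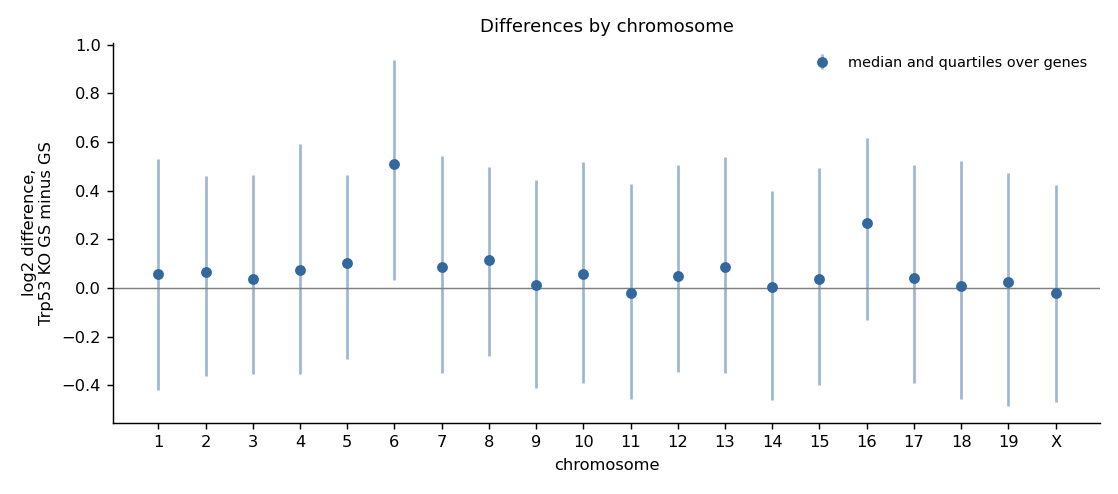
Median log2 difference between the knockout and GS arrays (y axis) of the genes on each autosome and X (x axis), with bars from the lower to the upper quartile over genes. Chromosome 6 stands at 0.51 and chromosome 16 at 0.27, and the others lie between -0.02 and 0.11.

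Several genes described above lie on chromosome 6. Stra8, Cdkn1b, Dppa3 and Xpc differed by 2.85, 2.27, 2.14 and 1.12 on the log2 scale, all further than the chromosome's median, and Golt1b, among the 10 highest of all genes, lies there too. Ret, Ccnd2 and Foxm1, which were lower, went against it. Etv5, on chromosome 16, was lower, while Dppa2 and Dppa4 on the same chromosome differed by 1.23 and 1.26. Leaving out chromosomes 6 and 16 gave 958 genes higher and 774 lower, a median of -1.83 for mitotic motor, condensin and cytokinesis genes, 0.61 for the piRNA list and 0.43 for the pluripotency list.

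The genes furthest apart outside these lists had varied roles. Zic1, a zinc finger transcription factor gene of neural development, read 5085 on the GS array and was under the floor on the knockout array (at least 61.5-fold lower). Mpzl2, an adhesion molecule of epithelia, read 2936 and 112 (26.1-fold), and its other 2 probe sets were at least 13.8-fold and 15.5-fold lower. Nefm, a neurofilament gene, read 4571 and 249 (18.4-fold). Plekhh3 and the glycosyltransferase gene B4gat1 were 13.8-fold and 9.02-fold lower, and the bounds for Nav1, Skor1 and Crmp1, genes of neurons, were at least 14.8-fold, at least 11.9-fold and at least 10.7-fold. On the other side Enpep, an aminopeptidase gene, read 105 and 1598 (15.2-fold higher), the LIM-only factor gene Lmo1 230.5 and 2544 (11.0-fold) and Cebpa, a transcription factor gene of myeloid and fat cells, 105 and 998 (9.55-fold). Serpini1, Phlda2, Crispld1 and Akap12 were between 8.37-fold and 9.66-fold higher. Tubb2b, a beta-tubulin gene, read 68.2 and 1749 (at least 21.2-fold higher), and Lgals2, Dpep1, Pde6b, Cerk and Coch were at least 7.98-fold to 15.6-fold higher.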

How the data were processed

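The authors deposited 1 linear intensity per Affymetrix probe set and array, from biotin-labelled cRNA of total RNA, per the labels' protocols; no source used here names the software. Trimmed of 2% of values at each end, every array had a mean of 499.8 to 499.9 and so had been scaled. Of 45101 probe sets, 64 controls were set aside. Of the rest, 34945 had 1 symbol, 932 several (left out) and 9160 none. By gene identifier 34741 matched the table of GRCm38.p6, which supplied symbols and chromosomes. Medians and 75th percentiles differed by 0.29 and 0.27 on the log2 scale, over a limit of 0.2, so log2 values were quantile normalised over the 4 arrays. A gene took the probe set with the highest mean. Differences of 2-fold were counted.

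The 33 gene lists name 636 genes, 593 of them measured, and were chosen with earlier results of these data known. Named were the 10 highest and 10 lowest genes, the 6 largest bounds each way, members at least 2-fold apart (up to 6 each way per list) and fixed reference genes; members within 2-fold were added after their values were seen. Steps were tested on simulated data with large differences planted in genes well above the floor, alike in all probe sets of a gene. Differences near 2-fold, genes near the floor and probe sets that disagree were not covered by that test. Python 3.11.15, numpy 2.4.6, pandas 2.3.3 and matplotlib 3.10.9 were used.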

Additional observations from a re-analysis of the deposited data

Results flagged for a closer look

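Signals outside the named genes also separated the arrays. The dap poly-A control, an RNA added before labelling, read 3055 on the knockout array as the median of 6 probe sets, against 271 on the GS, 255 on the mGS and 2545 on the ES array. Among 9160 unnamed probe sets, 2727 could be compared, of which 139 (5.10%) exceeded the GS value by 2-fold or more on the knockout array and 317 (11.6%) lay as far below, the median being -0.19 on the log2 scale. The 5′ probe set of 18S RNA read 32246 on the GS array, 27686 on mGS and 20754 on ES, but 1414 on the knockout array.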

How the results depend on the processing

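No paired analysis was possible because each group has 1 array. Counts of genes higher by 2-fold or more moved to 1759 with a floor at the 30th percentile and 3166 with no floor, and counts of lower genes to 2597 with no floor. At 1.5-fold 2596 genes were higher and 1874 lower, and at 4-fold 128 and 122. The other settings, deposited values, median centring, both other probe set rules, quantiles over the 2 arrays, the 60th percentile, a pseudocount of 32 and symbols of shared probe sets, kept both counts within 1.5 times. The growth factor ligand median, -0.74, became 0.14 with the lower floor and 0.55 with none, and the PI3K, AKT and mTOR median, 0.29, became -0.13 when probe sets were averaged. Without probe set types prone to cross-hybridisation Pttg1 and Sdc4 turned to -0.43 and -0.10. Single genes named by the rules above also changed in size. With probe sets averaged 47 of 196 moved by more than 0.49 on the log2 scale, and with a floor at the 60th percentile 45 of 202 did. None of those 2-fold apart changed sign in either setting. The number of arrays, 1 per culture, limits every value.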
